A study of Bos taurus with 8 samples.

Results

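The vanins and the genes of coenzyme A synthesis were followed in bovine granulosa cells exposed to fatty acids. They comprised the pantetheinases VNN1 and VNN2, the pantothenate carrier SLC5A6, the pantothenate kinase family PANK1, PANK2, PANK3 and PANK4, and the later enzymes PPCS, PPCDC and COASY. These 10 genes, of 18010 measured, were taken as the probe sets whose single gene symbol in the platform annotation was one of these names, with a gene's probe set chosen by its mean level over all 8 arrays, the brightest standing for the gene. Each of the 10 had 1 probe set, so brightness decided no choice. The genes themselves were named with earlier results of these arrays known, among them that of VNN2. In the RefSeq gene table of cattle (assembly ARS-UCD2.0), VNN1 and VNN2 are neighbouring protein-coding genes.

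Coenzyme A carries acyl groups in fatty acid oxidation, fatty acid synthesis and the citric acid cycle. Cells build it from pantothenate (vitamin B5), cysteine and ATP, and the pantothenate kinases catalyse the step that limits the rate. Vanins are enzymes of the cell surface or of extracellular fluid that split pantetheine, a breakdown product of coenzyme A, into pantothenate and cysteamine, and so return the vitamin for reuse. In mouse liver, Vnn1 and Pank1 are known targets of the fatty acid receptor PPAR alpha.

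The cells were primary granulosa cells, the steroid-producing cells around the oocyte. All cultures were kept without serum in alpha-MEM with FSH, IGF-1 and androstenedione. On days 2 and 4 the medium was exchanged for medium with bovine serum albumin (BSA, 4 arrays) or with fatty acids in the non-esterified form (NEFA, 4 arrays). Cells were taken on day 6. The labels give neither the animals' age or breed nor the make-up and dose of the fatty acids, and do not say if replicates differ in animal, pool or culture. The p-values thus reflect the variation among these arrays alone, part or all of which may be technical.

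Levels are log2 expression values after RMA, and changes are NEFA minus BSA on the log2 scale. Array medians ran from 4.78 to 4.86, and precision is set by having 4 arrays in a group. Of 12 granulosa markers, 12 were measured and none lay in the dimmest 33.3% of probe sets (mean level below 3.56). The brightest were INHBA (11.6), CYP11A1 (11.4) and FST (10.7). None changed at a limma adjusted p under 0.05. At an unadjusted p under 0.05, 4 were lower and 2 higher with NEFA, where 16.8% of all genes were lower or higher. In such bulk samples, fewer cells of a type and less RNA per cell cannot be told apart.

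Of the 10 genes, VNN2 and PANK1 fell with NEFA and none rose. VNN2 was 1.81-fold lower and PANK1 1.44-fold lower. The other pantetheinase, VNN1, the carrier SLC5A6, the 3 other genes of the kinase family and the 3 later enzymes did not pass the threshold, a Benjamini-Hochberg adjusted p under 0.05 over all probe sets in limma. Over all genes, 2.35% passed, 1.35% as lower and 0.999% as higher. Since the choice of genes was not blind to such results, nothing is read from 2 of 10 against that share. The median change of the 10 was -0.05, and 7 had lower values; over all genes the median was 0.005 and 48.4% had lower values.

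**Figure D1:**
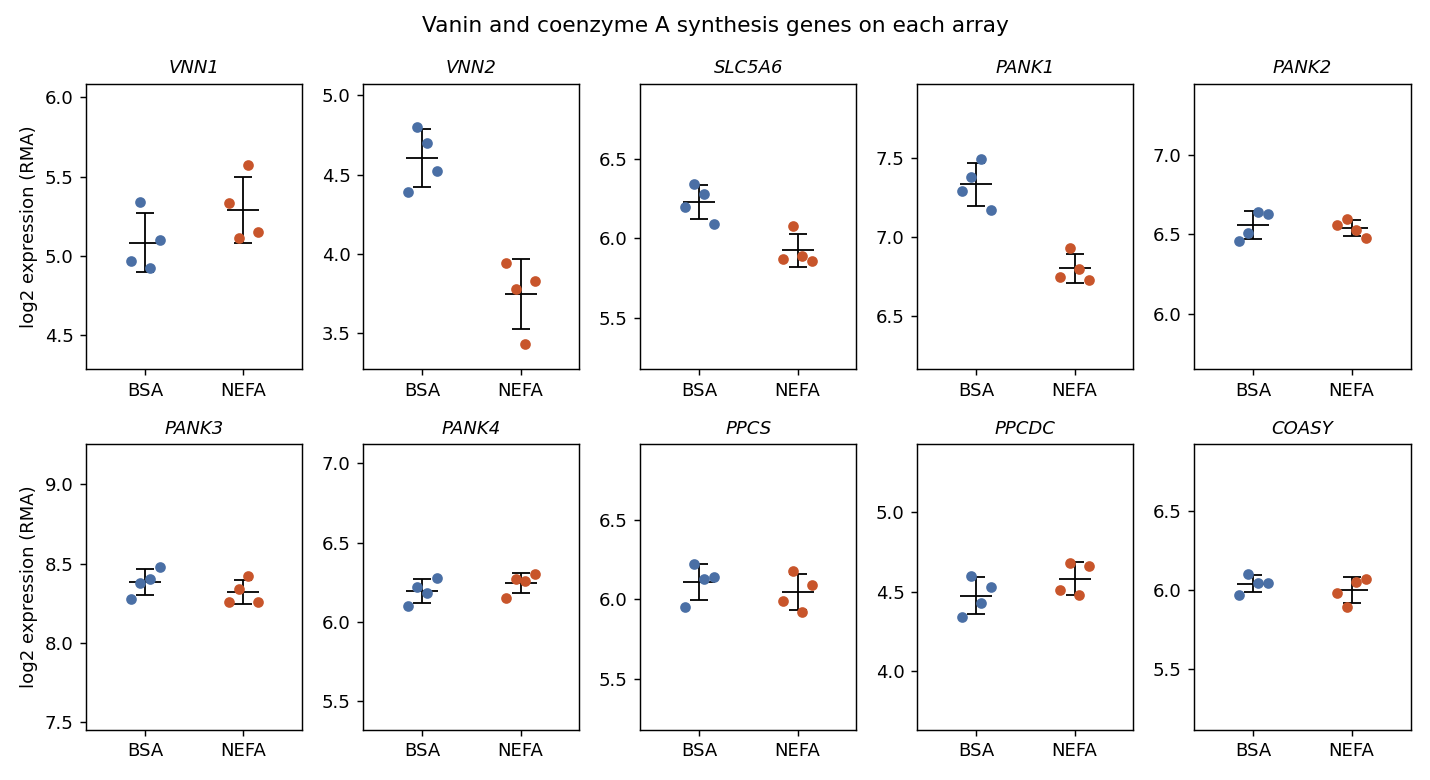
Log2 expression (RMA) of the 10 genes on each of the 4 BSA (blue) and 4 NEFA (orange) arrays, with the mean (long bar) and SD (whiskers); every panel spans the same range of log2 units around its own centre. VNN2, PANK1 and SLC5A6 show groups that do not overlap, the last by the narrow gap between 6.08 and 6.09.

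Of the pantetheinases, VNN2 fell and VNN1 did not pass the threshold. VNN2, a pantetheinase that on human neutrophils is a surface protein of leukocyte migration, read 4.39, 4.80, 4.70 and 4.52 on BSA arrays 1 to 4 and 3.94, 3.78, 3.43 and 3.83 on NEFA arrays 1 to 4. Every NEFA array lay below every BSA array, and NEFA 3 was the lowest of all. The mean went from 4.60 ± 0.18 to 3.75 ± 0.22 (SD, n = 4 each), a change of -0.86 (SE 0.13, 95% interval -1.15 to -0.57; limma, adjusted p = 0.016). By size this was the 12th of the 243 genes that fell. The mean level of VNN2 was 4.17, and every array read below the median level of all probe sets (4.81). On NEFA 3 the probe set lay below the limit of the dimmest 33.3%, and RMA understates folds of dim probe sets. Among the fits with 1 array left out, the call ended without BSA 3 (limma, adjusted p = 0.053) and without NEFA 2 (adjusted p = 0.051). It also ended with the replicate number as a block (limma, adjusted p = 0.10). The change stayed between -0.93 and -0.75 over all alternatives.

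VNN1, also a pantetheinase, is held on cell membranes by a lipid anchor. It read 4.97, 5.34, 4.92 and 5.10 with BSA and 5.33, 5.11, 5.57 and 5.15 with NEFA. The groups overlapped: the second BSA array was above 3 of the 4 NEFA arrays. The mean went from 5.08 ± 0.19 to 5.29 ± 0.21 (SD, n = 4 each), a change of 0.21 (SE 0.13, 95% interval -0.08 to 0.49) that did not pass (limma, adjusted p = 0.46). The interval reaches from a small decrease to an increase of about the size seen for PANK1 in the other direction.

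Within each array, the VNN2 value minus the VNN1 value removes what both probe sets share on that array. It was -0.58, -0.54, -0.22 and -0.58 with BSA and -1.39, -1.33, -2.14 and -1.32 with NEFA. The groups did not overlap, and their means differed by -1.06 on the log2 scale. The 95% intervals of the 2 changes did not overlap either. This difference was not tested, since the pair was picked with the change of VNN2 known.

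VNN2 is carried by neutrophils in humans, so markers of these cells and of monocytes were read beside it. Of 15 listed, 14 were measured, 0 passed in limma (1 was higher at an unadjusted p under 0.05) and 9 lay in the dimmest 33.3%. Over all genes, 8.92% were lower and 7.9% higher at an unadjusted p under 0.05. Their mean level was 3.31 to 3.48 over the BSA arrays and 3.45 to 3.51 over the NEFA arrays. The pan-leukocyte marker PTPRC was at 2.88, the neutrophil receptors CSF3R and CXCR2 at 3.39 and 2.94 and the neutrophil protein S100A8 at 1.79, all in the dim range. Its partner S100A9 was at 4.23, above that range. The brightest were the monocyte markers CD68 (4.69) and CD14 (4.59) and the neutrophil enzyme MPO (4.48).

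Other cells were read the same way. The 5 theca markers had a mean level of 4.98 to 5.08 with BSA and 5.20 to 5.28 with NEFA; 4 of 5 were higher with NEFA and none passed after adjustment. The 4 (CYP17A1, INSL3, PTCH1 and GLI1) were each higher at an unadjusted p under 0.05, as 7.9% of all genes were. The brightest theca markers were INSL3 (7.98), PTCH1 (6.28) and TBXA2R (4.13). Of 5 endothelial markers VWF, a clotting protein, fell by 0.35 on the log2 scale (limma, adjusted p = 0.039) and 4 did not pass. Over all genes, 1.35% passed as lower. The mean level of the 5 was 3.52 to 3.80 with BSA and 3.51 to 3.63 with NEFA. The brightest after VWF (5.09) were TEK (3.82) and CDH5 (3.33). The part of theca and endothelial cells in the changes of VNN2 and PANK1 was not tested.

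Pantothenate enters cells through SLC5A6, a sodium-dependent carrier that also takes up biotin. It read 6.20, 6.34, 6.28 and 6.09 with BSA and 5.87, 6.08, 5.89 and 5.86 with NEFA. The groups did not overlap, but only 0.01 separated NEFA 2 from BSA 4, and the other NEFA arrays lay within 0.03 of each other. The mean was 6.23 ± 0.11 with BSA and 5.93 ± 0.10 with NEFA (SD, n = 4 each), a change of -0.30 (SE 0.076, 95% interval -0.48 to -0.13) that did not pass (limma, adjusted p = 0.093). With the dimmest 33.3% of probe sets left out the adjusted p was 0.047, and with trend and robust eBayes it was 0.038 (limma); over all alternatives it ran from 0.038 to 0.20. Counting SLC5A6, the groups did not overlap for 3 of the 10 genes, all lower with NEFA; over all genes 12.4% showed no overlap, 7.2% as lower.

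Of the 4 genes of the pantothenate kinase family, PANK1 fell and 3 did not pass. PANK1 read 7.29, 7.38, 7.49 and 7.17 with BSA and 6.75, 6.93, 6.80 and 6.73 with NEFA. All NEFA arrays lay below all BSA arrays. The mean went from 7.33 ± 0.14 to 6.80 ± 0.09 (SD, n = 4 each), a change of -0.53 (SE 0.080, 95% interval -0.71 to -0.35; limma, adjusted p = 0.016), the 63rd of the 243 falls by size. Among the fits with 1 array left out, the call ended without BSA 2, without NEFA 1 and without NEFA 3, at limma adjusted p of 0.057, 0.057 and 0.054. It also ended with the replicate number as a block (limma, adjusted p = 0.059). The change itself lay between -0.58 and -0.48 in all alternatives.

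BSA 4 was the lowest BSA array, and NEFA 2 the highest NEFA array, for both PANK1 and SLC5A6. No test was made of this likeness.

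PANK3, a kinase of the cytosol, read 8.28, 8.38, 8.40 and 8.48 with BSA and 8.26, 8.34, 8.42 and 8.26 with NEFA. PANK2, whose human form is found in mitochondria and is mutated in a neurodegenerative disease, read 6.46, 6.51, 6.64 and 6.63 with BSA and 6.56, 6.60, 6.53 and 6.48 with NEFA. PANK4, which in mammals lacks kinase activity and acts as a phosphatase on phosphopantetheine, read 6.10, 6.22, 6.18 and 6.28 with BSA and 6.15, 6.27, 6.26 and 6.30 with NEFA. In all 3 genes the groups overlapped.

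The changes were -0.07 for PANK3 (95% interval -0.21 to 0.08), -0.02 for PANK2 (-0.16 to 0.12) and 0.05 for PANK4 (-0.09 to 0.19), and none passed (limma, adjusted p = 0.67, 0.92 and 0.74). Each of these intervals lay wholly above that of PANK1, which reached from -0.71 to -0.35. Within arrays, PANK1 minus PANK2 was 0.83, 0.87, 0.85 and 0.54 with BSA and 0.19, 0.33, 0.27 and 0.25 with NEFA. The groups did not overlap in this measure, nor in PANK1 minus PANK3 or PANK1 minus PANK4; the NEFA and BSA means of the latter pair of measures differed by -0.46 and -0.58 on the log2 scale. PANK1, the gene of the family that passed, is in each of these pairs, so the gaps in part repeat its own fall. The differences between genes were not tested.

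The 3 enzymes that finish coenzyme A varied little. PPCS, which joins phosphopantothenate to cysteine, read 5.95, 6.22, 6.13 and 6.14 with BSA and 5.99, 6.18, 5.92 and 6.09 with NEFA. PPCDC, which removes the carboxyl group of that product, read 4.34, 4.60, 4.43 and 4.53 with BSA and 4.51, 4.68, 4.48 and 4.66 with NEFA. COASY, the bifunctional enzyme of the closing steps, read 5.97, 6.10, 6.04 and 6.04 with BSA and 5.98, 5.89, 6.05 and 6.07 with NEFA. All 3 overlapped between the groups.

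Their changes were -0.07 for PPCS (95% interval -0.25 to 0.12), 0.11 for PPCDC (-0.07 to 0.28) and -0.04 for COASY (-0.17 to 0.09), with limma adjusted p of 0.74, 0.54 and 0.79. On these arrays, the intervals of PPCS, PPCDC and COASY held only changes smaller in size than the -0.53 of PANK1. For the carrier, the 4 genes of the kinase family and the 3 later enzymes together, 1 of 8 fell, 0 rose and 7 did not pass. Over all genes, 1.35% passed as lower and 0.999% as higher. The genes were chosen with earlier results known, so nothing is read from 1 of 8. Their median change was -0.05.

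**Figure D2:**
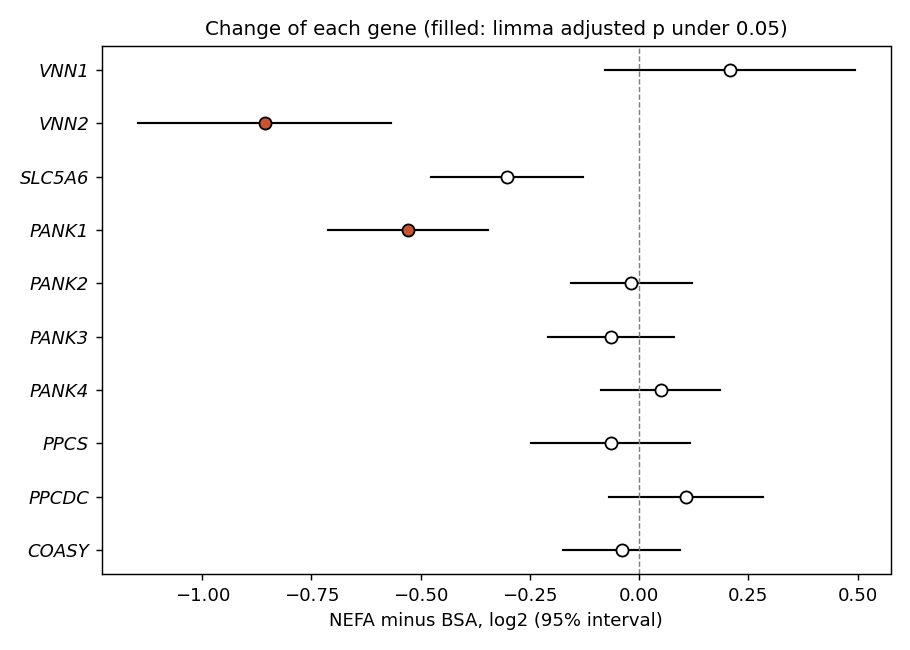
Change of each gene, NEFA minus BSA on the log2 scale, with its 95% interval from limma; filled points passed the threshold. VNN2 (-0.86) and PANK1 (-0.53) are filled, the interval of SLC5A6 lies below 0 without passing after adjustment, and the other 7 intervals include 0.

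Genes that break down coenzyme A or move it into organelles were read next. Of 10 listed and measured, 0 passed in limma (2 were lower and 2 higher at an unadjusted p under 0.05, where 16.8% of all genes were lower or higher), with a median change of 0.03. ENPP1, a surface enzyme that can cleave nucleotides such as coenzyme A, was 6.78 ± 0.16 with BSA and 7.15 ± 0.13 with NEFA (SD, n = 4 each). It changed by 0.37 without overlap and did not pass (limma, adjusted p = 0.10). SLC25A16, a mitochondrial carrier linked to coenzyme A in yeast, changed by -0.24 without overlap, short of the threshold (limma, adjusted p = 0.14).

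The list of phosphopantetheine transfer and acceptor proteins, around the arm that coenzyme A supplies, included a large fall. FASN, the fatty acid synthase, whose acyl carrier domain bears the arm, fell by 1.11 (limma, adjusted p = 6.67e-05). ALDH1L2, a mitochondrial folate enzyme that bears it as well, read 7.03, 6.96, 7.55 and 7.12 with BSA and 5.86, 6.64, 6.37 and 5.64 with NEFA. It was 2.05-fold lower without overlap, but the spread of the NEFA arrays was wide and it did not pass (limma, adjusted p = 0.060). Of the 8 listed genes, not all of whose proteins bear the arm, 1 fell, 0 rose and 7 did not pass. Over all genes, 1.35% passed as lower. The median was -0.07. At an unadjusted p under 0.05, 3 were lower and 0 higher, where 8.92% of all genes were lower and 7.9% higher. AASDHPPT, the enzyme that attaches the arm, changed by -0.04 with an SE of 0.25.

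Genes around cysteamine, the other product of the vanins, showed no call. Of 9 listed, 8 were measured, 0 passed in limma (1 was lower at an unadjusted p under 0.05, as were 8.92% of all genes) and the median change was -0.05. The taurine transporter SLC6A6 changed by -0.19 (limma, adjusted p = 0.29) and CDO1, the cysteine dioxygenase, by -0.10 (limma, adjusted p = 0.63). Among the relatives of the vanins in the nitrilase family, 4 of 5 listed were measured and 0 passed in limma (1 was higher at an unadjusted p under 0.05, as were 7.9% of all genes), with a median change of -0.04. UPB1, of pyrimidine breakdown, changed by 0.19 (limma, adjusted p = 0.30) and NADSYN1, of NAD synthesis, by -0.04 (adjusted p = 0.80).

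Biotin is the other vitamin carried by SLC5A6. Of 9 biotin genes listed 7 were measured, of which ACACA fell, 0 rose and 6 did not pass. Over all genes, 1.35% passed as lower. Lower values were seen in 6 of 7, against 48.4% of all genes, and the median change was -0.14. At an unadjusted p under 0.05, 3 were lower and 0 higher, where 8.92% of all genes were lower and 7.9% higher. ACACA, the acetyl-CoA carboxylase that makes malonyl-CoA for fatty acid synthesis, read 7.08, 7.10, 7.13 and 7.10 with BSA and 6.44, 6.51, 6.57 and 6.36 with NEFA. It fell by 0.63 on the log2 scale (limma, adjusted p = 0.0017). MCCC1, a subunit of a carboxylase of leucine breakdown, changed by -0.31 without overlap and did not pass (limma, adjusted p = 0.11).

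**Figure D3:**
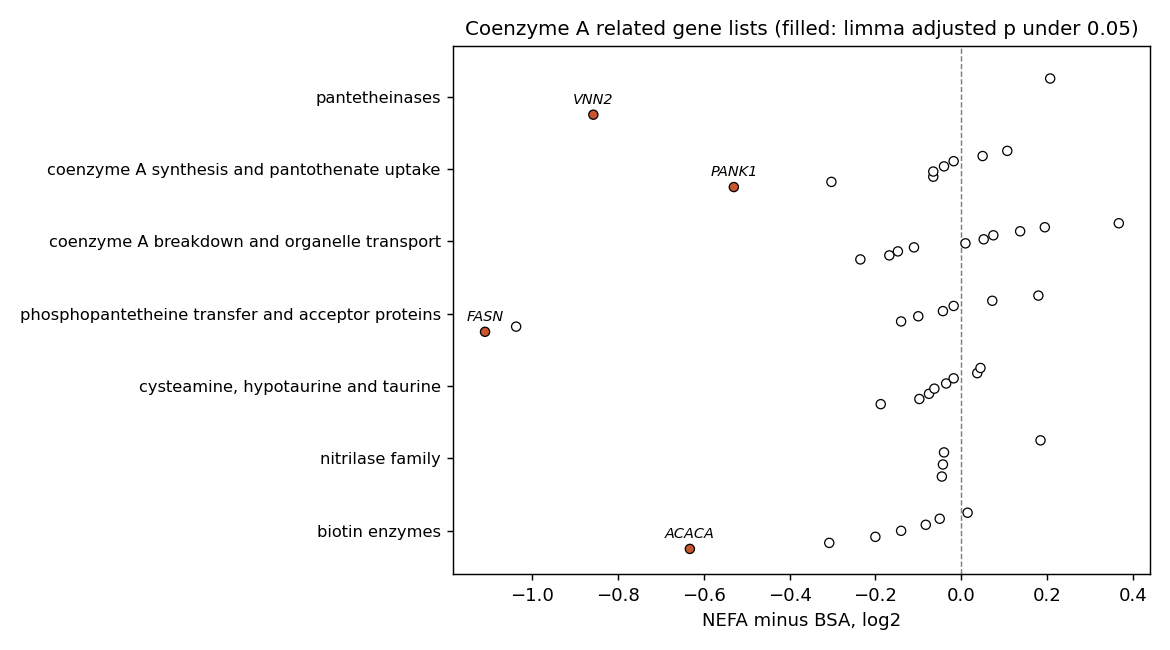
Change of each gene of the 7 lists around coenzyme A, NEFA minus BSA on the log2 scale; each point is a gene and filled points passed the limma threshold. The filled points are VNN2, PANK1, FASN and ACACA, all to the left of 0.

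Known PPAR targets were read on the same arrays. ANGPTL4, CD36, PDK4, CPT1A and PLIN2, picked because earlier results showed them to rise, rose by 3.14, 2.78, 2.04, 1.11 and 1.10. Other targets, added after their values were seen, did not pass: ACADM, ACADVL, ACSL1, ACAA2 and ACADL changed by 0.22, 0.09, -0.04, -0.01 and -0.07. Both sets were picked with their values known, so the spread between them is no result about PPAR targets. VNN1, at 0.21, was near ACADM in size only. Its SE was 0.13 (limma, adjusted p = 0.46) and its groups overlapped. ACADM had an SE of 0.047 and narrowly missed the threshold (limma, adjusted p = 0.056), with groups that did not overlap. PANK1 fell.

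The genes most like VNN2 over the 8 arrays, among 10117 with a mean level above the median of all probe sets, were CLEC12B (Pearson r = 0.98), JKAMP (0.98), CHFR (0.98), SCYL3 (0.98) and BDH1 (0.97). Of these CLEC12B and BDH1, a ketone body dehydrogenase, fell by 0.72 and 0.73 (limma, adjusted p = 0.013 and 0.0012), and the other 3 did not pass. For VNN1 they were CFAP20 (0.97), TSHZ1 (0.97), GPSM2 (0.95), PCNA (0.94) and SYNPO2 (0.93), of which none passed. These correlations describe 8 arrays that share a treatment split, and for VNN2 the split held 85.7% of the sum of squares.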

How the data were processed

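RNA of 8 samples was measured on expression arrays. The deposited log2 values were made by the authors with RMA, per the submitters' processing notes, which equalises array distributions. The RefSeq gene table is that of assembly ARS-UCD2.0, and no coordinates are printed. The table held 24415 probe sets. The platform annotation named 18457 with 1 gene symbol, 688 with several and 5270 with none; 17996 symbols were set by gene ID from the RefSeq table. limma 3.58.1 in R 4.3.3 (lmFit, eBayes) gave NEFA minus BSA, with Benjamini-Hochberg adjustment across the whole table and a threshold of 0.05. The genes and lists were chosen with earlier results of these data known. Named were all 10 genes, every called gene of the other pathway lists and otherwise the 2 of smallest p, the brightest 3 of each marker list, 5 PPAR targets known to have risen, and the 5 genes most like each vanin; ALDH1L2, AASDHPPT, MCCC1, PTPRC, CSF3R, CXCR2, S100A8, S100A9, ACADM, ACADVL, ACSL1, ACAA2 and ACADL were added after their values were seen. The fit was also tested on simulated data. Of 50 changes set at each log2 size, it recovered 2 at 0.25, 25 at 0.5, 46 at 1 and 48 at 2. Of its 129 calls there, 8 were false. Alternatives were the replicate block, quantile normalization, median centring, a filter on dim probe sets, trend and robust eBayes, array weights, no moderation, averaging the probe sets of a gene and leaving out each array.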

Additional observations from a re-analysis of the deposited data

Results flagged for a closer look

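SLC5A6 on NEFA 2 read 6.08, while the other NEFA arrays lay between 5.86 and 5.89, and this gap took up 0.864 of the group's range, above the limit of 0.829 for 4 samples. It was the 1 case in 36 groups examined for 18 named genes, and chance gives about 1 in 20. Without NEFA 2 the change of SLC5A6 was -0.35 (limma, adjusted p = 0.082).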

How the results depend on the processing

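The count of the 10 genes past the threshold was 2 and ran from 1 to 2 when 1 array was left out. It was 0 with the replicate number as a block, where VNN2 and PANK1 had limma adjusted p of 0.10 and 0.059. Correlations of deviations ran from -0.01 to 0.07 for same-numbered arrays and from -0.10 to 0.06 for arrays of different number. Taken over all probe sets, they cannot settle whether the numbers mark pairs, and the labels do not say. The fit without the block was kept as the main one. Over all genes, 423 passed; 77 did with the replicate block, 790 without the dimmest 33.3% of probe sets, 1097 with trend and robust eBayes, and 164 to 260 with 1 array left out. Centring gave 127 higher and 302 lower, against 180 and 243. PANK2, with a change of -0.02, turned to 0.0031 with a further quantile normalization and ran from -0.051 without BSA 1 to 0.0092 without BSA 3 when 1 array was left out (0.0058 without BSA 4, 0.0033 without NEFA 4), and passed in none of these. The other 9 genes kept their sign in 16 of 16 alternatives. VNN1, PANK2, PANK3, PANK4, PPCS, PPCDC and COASY passed in none of the 16. Arrays give no read depth; the dim range touched VNN2 on NEFA 3 (3.43).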
